A study of Mus musculus with 20 samples.

Results

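Serotonin (5-HT) neurons of Pet-1-/- mouse embryos at embryonic stage E15.5 were compared with wild-type neurons in libraries amplified with a NuGEN kit. The table lists 22552 genes, and the 11019 described here had a valid test in the deposited table (status OK) and at least 1 FPKM in a group. FPKM counts sequenced fragments relative to transcript length and to the size of the library. Differences are given as log2(knockout FPKM / wild-type FPKM), so that negative values are lower in the knockout. A further 2353 genes with a valid test were under 1 FPKM in both groups and were left out.

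Both groups were C57BL/6 embryos of the same age, one labelled wild type and one Pet-1-/-, with 3 libraries each, 6 of the 20 samples of the series. The neurons carried EYFP, a yellow fluorescent protein, and were isolated on a cell sorter before their total RNA was amplified with the NuGEN Ovation system. An EYFP transgene driven by the ePet enhancer of the Pet-1 gene is named in the labels for the tissue used for chromatin, and no driver is named for the sorted neurons. The same genotypes were also profiled with a Clontech SMARTer kit in 3 libraries each, wild-type neurons were profiled at E11.5, E15.5 and postnatal days 1 to 3 (PN), and binding of Myc-tagged Pet-1 was mapped in embryonic hindbrain. The NuGEN libraries were deposited as 1 pooled FPKM value per group, so the values below have no replicate spread, and the only test across libraries is the p-value and q-value of the authors' deposited table. Nothing in the labels says that the 3 libraries came from separate animals or pools, so the spread behind those q-values may be technical.

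Pet-1, encoded by Fev, is a transcription factor of the ETS family that in the brain is found almost only in 5-HT neurons. It acts as a terminal selector there, together with Gata and Lim homeodomain factors, and switches on the genes for making, packaging and taking up serotonin. Neurons that lack it are still born, but many do not make serotonin.

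A gene was called lower or higher when its q in the authors' deposited table was below 0.05 and the groups differed by at least 1.5-fold. By this rule 502 genes (4.56% of those tested) were lower and 901 (8.18%) were higher in the knockout, 1403 (12.7%) in all. Called genes changed by a median log2 ratio of -0.89 when lower and 0.89 when higher. At least 2-fold changes numbered 163 lower and 308 higher, and at least 4-fold changes 23 and 31. Among genes reaching 5 FPKM, the steepest falls included those of serotonin genes and of a few signalling and peptide-processing genes. The steepest rises were led by Calb2 and the neuropeptide gene Penk, and included genes of other kinds. The smallest q in the authors' deposited table was 0.00206, held by the 292 genes at its smallest p of 5e-05. Called genes named below without a q lay between this value and 0.05.

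**Figure D1:**
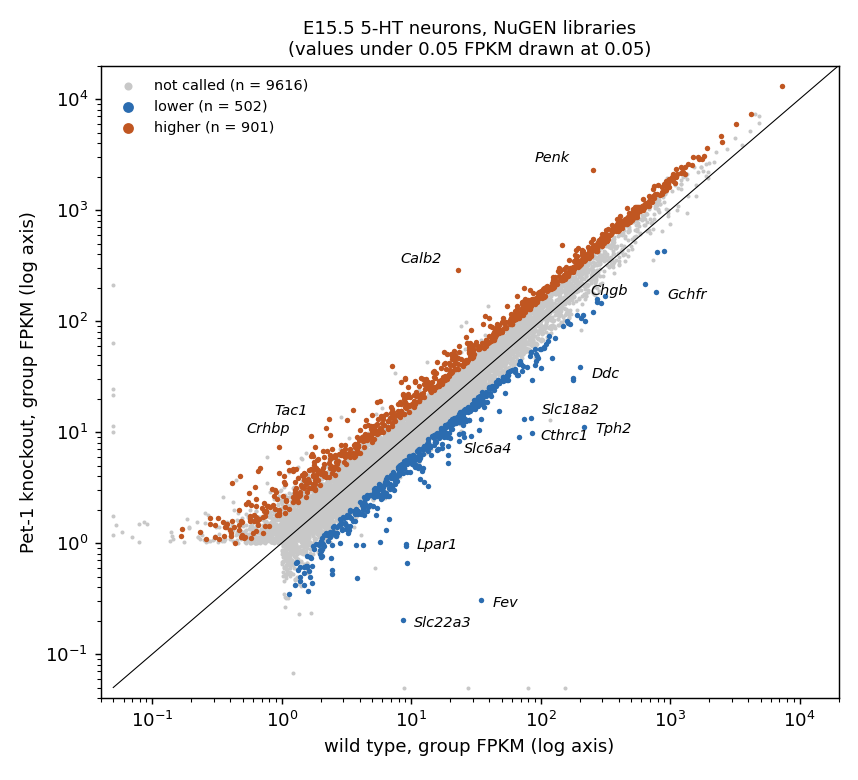
Group FPKM in the wild type (horizontal, log axis) and in the Pet-1 knockout (vertical, log axis) for the genes tested in the NuGEN comparison, 1 point per gene, with the line of equal values. Lower calls (502, blue) include Fev at 34.9 and 0.308 FPKM, higher calls (901, orange) include Calb2 at 22.9 and 289 FPKM, and most genes at the right-hand end lie above the line.

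Some properties of the libraries bear on all counts. FPKM over all genes summed to 563694 in the wild type and 761685 in the knockout, while the upper quartiles of the tested genes were 27.8 and 28.8 FPKM. The median log2 ratio of all tested genes was 0.09. The deposited tables carry no read numbers, and depth is unknown. Estimates failed (status HIDATA) for 14 genes such as Actb, Tubb3 and Stmn1, which are listed at 0 in a group (10 of them in both) and were not used. Xist, which is transcribed from the inactive X chromosome, rose from 3.20 to 13.0 FPKM, while the Y-linked genes Ddx3y, Uty and Kdm5d fell (5.21 to 2.62, 1.39 to 0.605 and 1.64 to 0.744 FPKM, q = 0.00921, 0.0120 and 0.00990 in the authors' deposited table). Eif2s3y, also on the Y chromosome, was at 15.9 and 13.8 FPKM (q = 0.644 in the authors' deposited table). The sex of the embryos was not given in the labels used here, and its part in other results was not tested.

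Fev itself, the targeted gene, fell from 34.9 FPKM in the wild type to 0.308 FPKM in the knockout, a log2 ratio of -6.82 and the steepest fall of the 502. The pooled values match the group labels. The sources used here do not say which part of Fev the allele removes. The Myc-tagged Pet-1 peak list held 1 peak at this gene, chr1:74885425-74887312 (mm10), with a score of 59.91 as given by the authors. It overlaps the 250 bases before the Fev transcription start, chr1:74885409-74885658 on the minus strand in GRCm38.p6. This window is shown because it carries a peak of Pet-1 at its own gene, and is followed by those of Gchfr, Vim and Rrm1, described below, whose peaks also overlap their windows. Sequences are RefSeq's, 5′ to 3′ on the strand of the gene, and capitals mark the ETS-type words CCGGAA and CAGGAA on either strand (TTCCGG and TTCCTG when read in reverse).
Fev: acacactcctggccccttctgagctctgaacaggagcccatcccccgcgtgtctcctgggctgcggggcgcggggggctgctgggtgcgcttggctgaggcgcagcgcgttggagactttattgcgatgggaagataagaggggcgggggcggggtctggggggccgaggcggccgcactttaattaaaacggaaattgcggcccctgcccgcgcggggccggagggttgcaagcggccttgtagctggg
Gchfr: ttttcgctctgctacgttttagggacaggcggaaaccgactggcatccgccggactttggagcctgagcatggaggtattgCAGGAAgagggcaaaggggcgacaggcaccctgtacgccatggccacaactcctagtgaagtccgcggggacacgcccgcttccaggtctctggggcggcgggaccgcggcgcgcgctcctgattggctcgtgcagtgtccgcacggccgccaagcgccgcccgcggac
Vim: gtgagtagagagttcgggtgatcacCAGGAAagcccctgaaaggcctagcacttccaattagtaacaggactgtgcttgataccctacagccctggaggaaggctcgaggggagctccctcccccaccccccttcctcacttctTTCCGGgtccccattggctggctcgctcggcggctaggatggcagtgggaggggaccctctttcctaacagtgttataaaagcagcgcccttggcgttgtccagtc
Rrm1: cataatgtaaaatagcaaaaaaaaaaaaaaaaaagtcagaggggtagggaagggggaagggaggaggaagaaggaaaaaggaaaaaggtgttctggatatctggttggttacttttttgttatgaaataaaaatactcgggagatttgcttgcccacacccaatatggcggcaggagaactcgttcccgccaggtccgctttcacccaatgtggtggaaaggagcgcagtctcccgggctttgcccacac
The Fev and Rrm1 windows held neither word. Gchfr held CAGGAA 1 time, and Vim held CAGGAA 1 time and CCGGAA 1 time. CCGGAA was present in 12.2% and CAGGAA in 25.4% of the 27025 promoter windows of this length, and in 23.7% and 20.4% of the 8762 windows of tested genes, so a match is common.

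The genes that make, store, take up and break down serotonin gave the clearest pattern of the comparison. Of 17 tested genes 9 were lower (52.9%, against 4.56% of all genes tested) and 0 were higher, with a median log2 ratio of -1.26 against 0.09. At an unadjusted p under 0.05 in the authors' deposited table the counts were 10 and 0. This list, like the others below, was chosen with earlier results of these data known, and the counts are descriptions.

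Tph2, the rate-limiting neuronal enzyme of serotonin synthesis, dropped from 218 to 11.1 FPKM, or 19.7-fold (log2 ratio -4.30). Ddc, the decarboxylase that completes the synthesis, fell from 203 to 38.8 FPKM (log2 ratio -2.39). The remaining transcript of Ddc was thus larger, in FPKM, than that of Tph2. Slc18a2, which loads monoamines into vesicles, fell from 83.7 to 13.5 FPKM (log2 ratio -2.63), and Slc6a4, the serotonin transporter of the plasma membrane, from 67.6 to 9.05 FPKM (log2 ratio -2.90). Slc22a3, a low-affinity organic cation transporter, had the steepest fall of a called gene after Fev, from 8.70 to 0.203 FPKM (log2 ratio -5.42). Slc29a4, the other low-affinity monoamine transporter of the list, was at 16.5 and 13.4 FPKM and was not called (q = 0.462 in the authors' deposited table). Uptake genes of the same class therefore differed in response, although the difference between them was not tested.

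Tph2 needs the cofactor tetrahydrobiopterin. Gch1, the first enzyme of its synthesis, fell from 6.38 to 2.67 FPKM (log2 ratio -1.26). Gchfr, which encodes the regulator that couples Gch1 to feedback, was the most abundant member of the list and fell from 781 to 182 FPKM (log2 ratio -2.10). Its promoter window, printed above (chr2:119167538-119167787, plus strand), holds the centre of a Myc-tagged Pet-1 peak at chr2:119167188-119167907 (mm10, score 69.92 as given by the authors). The other tetrahydrobiopterin genes of the list were not called. Pts was at 81.1 and 89.5, Spr at 15.2 and 13.9, Qdpr at 87.0 and 61.6 and Pcbd1 at 42.0 and 57.2 FPKM. Both breakdown genes of the monoamine oxidase family fell, with Maob at 23.3 and 8.32 FPKM (log2 ratio -1.48) and Maoa at 43.9 and 26.3 FPKM (log2 ratio -0.74, q = 0.0209 in the authors' deposited table). Aldh2, the dehydrogenase that acts on their product, was at 35.4 and 31.97 FPKM and was not called. Nor was Slc7a5, an amino acid carrier, at 2.22 and 2.39 FPKM, or Tph1, the peripheral isoform, at 1.23 and 0.0680 FPKM (q = 0.477 in the authors' deposited table). In bulk libraries fewer cells of a type and less RNA per cell cannot be told apart.

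**Figure D2:**
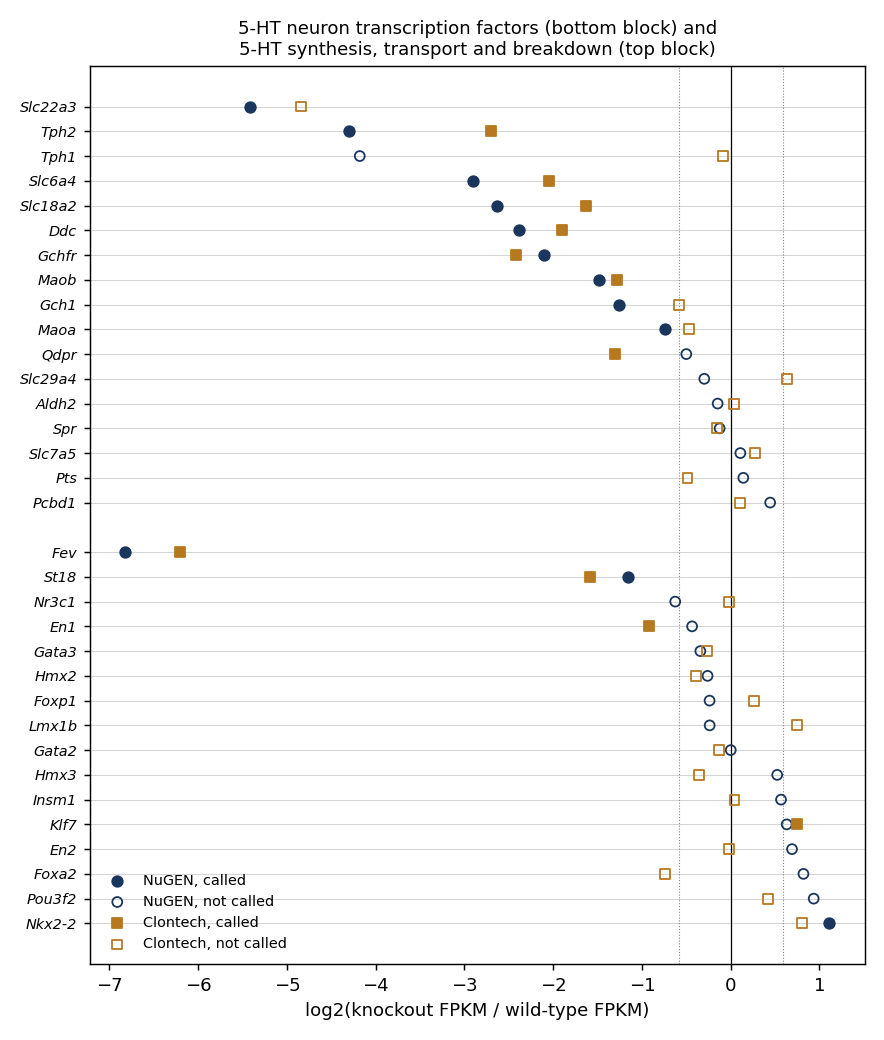
Log2 ratio of knockout over wild-type FPKM for the tested genes of the serotonin metabolism list (top block) and the 5-HT neuron transcription factors named in the text (bottom block), with NuGEN ratios as circles and Clontech ratios as squares, filled where called, and dotted lines at 1.5-fold. Fev (-6.82) and the 9 lower genes of the top block stand to the left of the line for 1.5-fold, and most transcription factors lie between or near the lines as open circles.

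Most transcription factors of 5-HT neurons did not follow Fev. Of 17 tested, 2 were lower, Fev and the zinc finger factor St18 (2.93 to 1.32 FPKM, log2 ratio -1.15, q = 0.00352 in the authors' deposited table), and 1 was higher, Nkx2-2, a homeobox factor that specifies 5-HT progenitors (8.35 to 18.04 FPKM, log2 ratio 1.11). Shares of 11.8% lower, with Fev included, and 5.88% higher compare with 4.56% and 8.18% of all genes. The median log2 ratio of the list was -0.24. The partners of Pet-1 in the mature program kept similar values. Gata2 was at 32.6 FPKM in both groups (log2 ratio 0.00, q = 0.998 in the authors' deposited table), Gata3 at 406 and 321, Lmx1b at 2.54 and 2.15 and En1 at 23.5 and 17.4 FPKM. None of these 4 was called. Among factors with higher but uncalled values were Klf7 (117 and 181 FPKM, q = 0.0625 in the authors' deposited table), Pou3f2 (2.64 and 5.05), Foxa2 (0.856 and 1.51), En2 (0.623 and 1.01), Insm1 (3.01 and 4.46) and Hmx3 (0.823 and 1.18). Those with lower but uncalled values were Nr3c1 (2.66 and 1.73), Hmx2 (12.49 and 10.43) and Foxp1 (24.4 and 20.7). Sorted cells of both genotypes thus carried transcripts of the 5-HT lineage. The 10 markers of the cell type were all at 1 FPKM or more in a group and summed to 1073 FPKM in the wild type and 446 in the knockout. Gata3 alone made up 406 and 321 FPKM of these sums, and Fev was at 0.308 FPKM in the knockout.

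Other factor families gave small counts, read against 4.56% lower and 8.18% higher among all genes. Of 14 tested nuclear factor I, SoxC, Neurod and Meis/Pbx genes, 0 were lower and 2 (14.3%) higher, both also at an unadjusted p under 0.05. Neurod6, a bHLH factor of differentiating neurons, rose from 2.19 to 10.9 FPKM (log2 ratio 2.32), and the homeobox factor Meis2 from 4.97 to 14.4 FPKM (log2 ratio 1.53). Among 5 other ETS factors 0 were called, with 1 lower at an unadjusted p under 0.05 in the authors' deposited table. Of 25 Hox genes 1 could be tested, Hoxa2, at 0.623 and 1.01 FPKM and not called. Lmo1, a LIM-only cofactor, rose from 17.9 to 52.8 FPKM (log2 ratio 1.56), and Zfp703, a transcriptional repressor, from 0.885 to 3.02 FPKM (log2 ratio 1.77, q = 0.00473 in the authors' deposited table).

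Of 14 serotonin receptor genes only 4 passed the filter, and 1 was lower and 2 higher. These are 25% and 50% of a short list, against 4.56% and 8.18% of all genes. With Clontech 0 of 4 were called. Htr1a, the inhibitory autoreceptor of 5-HT neurons, fell from 5.70 to 1.02 FPKM (log2 ratio -2.48). Htr3a, the ion channel receptor, rose from 4.30 to 9.27 FPKM, and Htr7, a receptor coupled to stimulatory G protein, from 2.06 to 4.44 FPKM (log2 ratio 1.11 for each, the latter with q = 0.00837 in the authors' deposited table). Htr5b was at 1.04 and 1.16 FPKM and was not called. The Clontech log2 ratios of Htr3a and Htr7 were 0.30 and 1.53, without a call.

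Receptors for other transmitters and lipids gave 3 lower and 2 higher of 15 tested, or 20% and 13.3% against 4.56% and 8.18% of all genes. Lpar1, a receptor for lysophosphatidic acid, fell from 9.14 to 0.983 FPKM (log2 ratio -3.22). Both tachykinin receptors of the list fell, Tacr3 from 2.39 to 0.731 FPKM (log2 ratio -1.71) and Tacr1, which binds substance P, from 1.39 to 0.452 FPKM (log2 ratio -1.62, q = 0.00352 in the authors' deposited table). Hcrtr1, an orexin receptor, rose from 1.82 to 4.64 FPKM (log2 ratio 1.35, q = 0.00837 in the authors' deposited table), and the opioid receptor Oprk1 from 0.484 to 1.13 FPKM (log2 ratio 1.22, q = 0.0432 in the authors' deposited table). The call of Oprk1 rests on low values and was lost when the fold was taken from log2(FPKM + 1). With Clontech Tacr1 was also called lower (log2 ratio -1.91), and Hcrtr1 was not called (-0.06). Tacr3 (0.71) and Oprk1 (-0.15) were under 1 FPKM in both Clontech groups and were not tested there. Outside the list Mc4r, the melanocortin receptor, rose from 0.622 to 3.19 FPKM (log2 ratio 2.36).

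Ionotropic receptor and ion channel lists gave small counts, read against 4.56% lower and 8.18% higher among all genes, and with Clontech they held 1 lower and 0 higher call in all. Glutamate receptor genes gave 0 lower and 2 higher (11.1%) of 18 (3 and 5 at an unadjusted p under 0.05 in the authors' deposited table). They were the NMDA receptor subunits Grin2b (5.57 to 13.2 FPKM, log2 ratio 1.24) and Grin3a (0.610 to 1.59 FPKM, log2 ratio 1.38, q = 0.0286 in the authors' deposited table). GABA and glycine receptor and chloride transport genes gave 1 lower (5.56%) and 3 higher (16.7%) of 18. The GABA-A subunit Gabrq fell from 2.04 to 0.765 FPKM (log2 ratio -1.42, q = 0.0358 in the authors' deposited table), whereas Gabra5 rose from 5.29 to 10.5 and Gabrb2 from 29.1 to 49.0 FPKM (log2 ratios 1.00 and 0.75). Slc12a5, which extrudes chloride from maturing neurons, rose from 3.55 to 6.52 FPKM (log2 ratio 0.88). Of 5 nicotinic and purinergic channel genes 0 were called, also 0 at an unadjusted p under 0.05 in the authors' deposited table.

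Potassium and HCN channel genes gave 0 lower and 3 higher of 33 tested (1 and 6 at an unadjusted p under 0.05 in the authors' deposited table). Kcnma1, a calcium-activated potassium channel, rose from 2.62 to 5.38 FPKM (log2 ratio 1.04), Kcnip1, a subunit of A-type channels, from 5.43 to 11.9 (1.13) and Kcnt1, a sodium-activated channel, from 0.746 to 1.74 FPKM (1.22). Sodium and calcium channel genes gave 1 lower and 4 higher of 24. Scn3b, an auxiliary sodium channel subunit, fell from 63.1 to 34.8 FPKM (log2 ratio -0.86), and Scn1a, a pore-forming one, rose from 1.06 to 2.13 FPKM (log2 ratio 1.01). The calcium channel subunits Cacna2d2 and Cacna2d3 had log2 ratios of 1.03 and 0.98. Shares of 9.09% and 16.7% higher in these lists compare with 8.18% of all genes.

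Synaptic release genes were called at shares of 2.5% lower and 7.5% higher, against 4.56% and 8.18% of all genes. Of 40 tested, 1 was lower, Syt1, the calcium sensor of fast release, which fell from 86.6 to 29.4 FPKM (log2 ratio -1.56). The 3 higher genes were Rab3b, Syt13 and Syt7 (log2 ratios 0.95, 0.93 and 0.76). Regulators of G protein signalling gave 0 lower and 4 higher (14.3%) of 28. At an unadjusted p under 0.05 in the authors' deposited table the counts were 1 and 4. The higher calls were led by Rgs20, which rose from 1.68 to 6.11 FPKM (log2 ratio 1.86). The others were Rgs17, Rgs10 and Gng3 (log2 ratios 0.96, 0.89 and 0.89).

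Neuropeptide and secreted signal genes gave 4 lower and 7 higher of 21 tested, or 19.0% and 33.3% against 4.56% and 8.18% of all genes. Their median log2 ratio was 0.59. With Clontech it was -0.08, with 4 lower and 3 higher of 20. Penk, which encodes the enkephalin precursor, rose 9.19-fold, from 252 to 2316 FPKM (log2 ratio 3.20), and so became one of the abundant transcripts of the knockout. Tac1, the precursor of substance P, rose from 2.31 to 13.1 FPKM (log2 ratio 2.50), while its receptor Tacr1 fell. Crhbp, which binds corticotropin-releasing hormone, rose from 1.70 to 9.15 FPKM (log2 ratio 2.43). Further rises were those of the galanin gene Gal (8.64 to 22.3 FPKM), of the neurotrophin gene Bdnf (1.62 to 4.60), of Pnoc (0.489 to 1.59, q = 0.0493 in the authors' deposited table) and of Chga (43.6 to 67.9, q = 0.0479 in the same table). Npy fell from 9.05 to 0.940 FPKM (log2 ratio -3.27, q = 0.0248 in the authors' deposited table) and the dynorphin precursor Pdyn from 16.0 to 6.88 FPKM (log2 ratio -1.22, q = 0.0150 in the authors' deposited table).

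Some genes of peptide storage and processing also fell, although Chga, another granin, rose. The granins Chgb and Scg2, which fill dense-core vesicles, went from 638 to 216 and from 894 to 431 FPKM (log2 ratios -1.56 and -1.05). Pcsk5 and Pcsk1, convertases that cut precursors, fell from 9.37 to 0.660 and from 13.6 to 3.26 FPKM (log2 ratios -3.83 and -2.06). The convertase genes were named by the size of their change and not through a list.

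Calcium and calmodulin binding proteins gave 1 lower and 6 higher of 18, or 5.56% and 33.3% against 4.56% and 8.18% of all genes. Their median log2 ratio was 0.53. With Clontech it was 0.15, with 1 lower and 3 higher of 17. Calb2, which encodes the calcium buffer calretinin, had the steepest rise among genes reaching 5 FPKM, 12.6-fold, from 22.9 to 289 FPKM (log2 ratio 3.66). The calmodulin-binding genes Pcp4l1 and Pcp4 rose from 0.470 to 1.97 and from 140 to 304 FPKM (log2 ratios 2.07 and 1.12, the first with q = 0.0350 in the authors' deposited table). Hpcal1 and Camk4 had log2 ratios of 0.83 and 0.77. Ncald, a neuronal calcium sensor, fell from 100.4 to 37.8 FPKM (log2 ratio -1.41).

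Axon guidance and growth genes gave 5 lower and 3 higher of 45 tested, or 11.1% and 6.67% against 4.56% and 8.18% of all genes. Sema3e, a secreted semaphorin, fell from 1.71 to 0.436 FPKM (log2 ratio -1.97), and the adhesion molecule Cntn1 from 25.6 to 9.05 FPKM (log2 ratio -1.50). The ephrin ligand Efna5 and the ephrin receptor Epha7 fell from 34.2 to 19.1 and from 23.5 to 12.4 FPKM (log2 ratios -0.84 and -0.92). Slit2 fell from 3.17 to 1.71 FPKM (log2 ratio -0.89), while Robo2, a receptor for Slit proteins, rose from 2.02 to 4.18 FPKM (log2 ratio 1.05). Efnb3 and Sema6d were the other rises, with a log2 ratio of 0.76 each.

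Cadherins, protocadherins and synaptic adhesion genes gave 3 lower and 7 higher of 42, or 7.14% and 16.7% against 4.56% and 8.18% of all genes. Their median log2 ratio was -0.07, and with Clontech 0 were lower and 1 higher of 41 (Cadm2). Ntng1 and Flrt1 had the largest rises (0.858 to 2.19 and 7.004 to 16.996 FPKM, log2 ratios 1.35 and 1.28), followed by Cadm2 (2.94 to 6.17 FPKM, log2 ratio 1.07) and the protocadherin Pcdh8 (4.66 to 9.17 FPKM, log2 ratio 0.98). Nlgn3, a postsynaptic neuroligin, fell from 20.8 to 10.6 FPKM (log2 ratio -0.97). Of 7 tested retinoid genes 1 was lower and 0 higher (1 and 2 at an unadjusted p under 0.05 in the authors' deposited table). This was Dhrs3, which reduces retinaldehyde and so limits retinoic acid, at 2.43 and 0.530 FPKM (log2 ratio -2.20, q = 0.0180 in the authors' deposited table). Of 11 immediate early genes 0 were lower and 1 higher, Nr4a2 (0.492 to 1.56 FPKM, log2 ratio 1.66), with 1 and 4 at an unadjusted p under 0.05 in the authors' deposited table. Fos was at 6.43 and 7.42 FPKM and was not called.

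**Figure D3:**
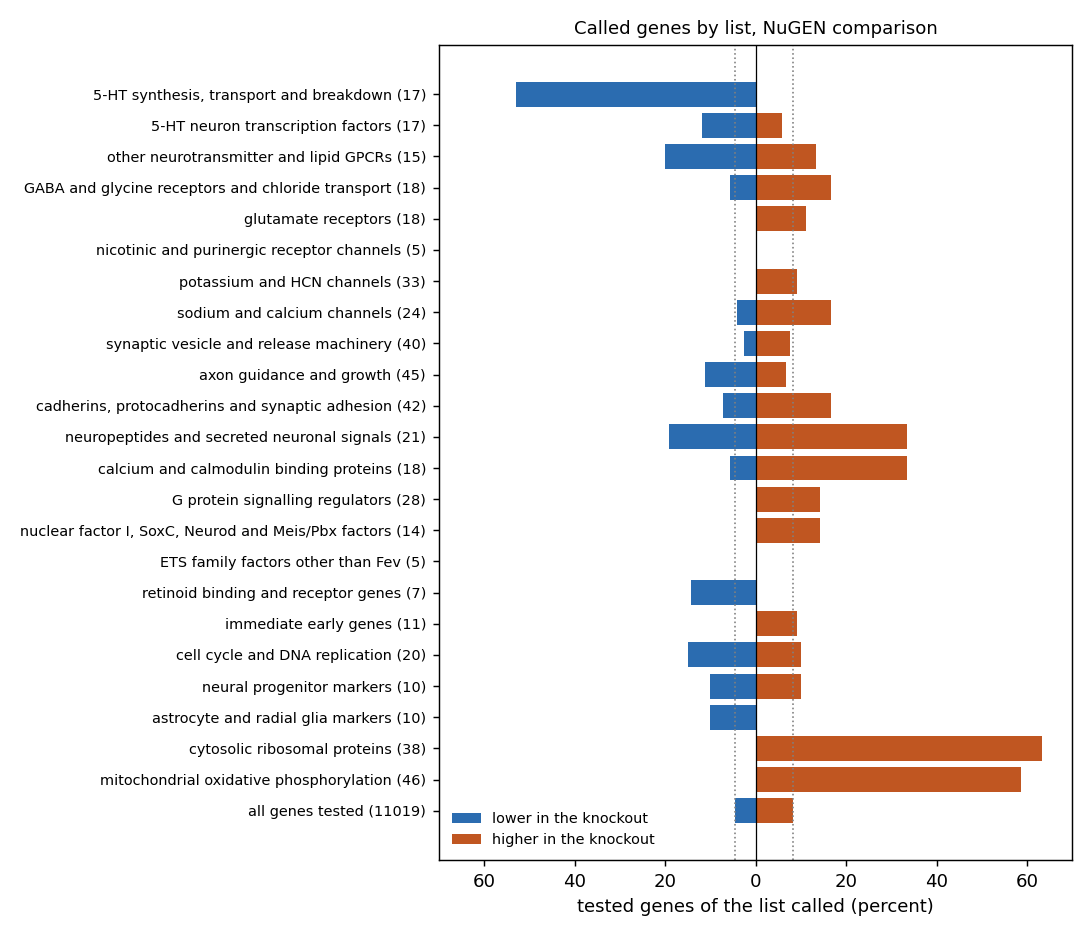
Percent of the tested genes of each list called lower (blue, to the left) and higher (orange, to the right) in the knockout, with the number tested in brackets, for lists with at least 5 tested genes, and dotted lines at the shares of all genes tested (4.56% and 8.18%). The serotonin metabolism list reaches 52.9% lower, and the ribosomal protein and oxidative phosphorylation lists reach 63.2% and 58.7% higher.

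Several of the steepest changes lay outside these lists. Cthrc1, a secreted protein, fell from 85.5 to 9.92 FPKM (log2 ratio -3.11). Dnajc12, a co-chaperone of the aromatic amino acid hydroxylases, to which Tph2 belongs, fell from 177 to 29.4 FPKM (log2 ratio -2.59). Cited1, a transcriptional coregulator, fell from 178 to 30.5 FPKM (log2 ratio -2.54). Pgls, an enzyme of the pentose phosphate pathway, fell from 74.7 to 13.3 FPKM (log2 ratio -2.49). Among rises, Chi3l1, a chitinase-like secreted protein, went from 1.12 to 5.35 FPKM, Jmjd7, a hydroxylase, from 3.54 to 15.7 FPKM, and Acta1, the actin of skeletal muscle, from 1.80 to 7.40 FPKM (log2 ratios 2.26, 2.15 and 2.04). The transcript 1500016L03Rik rose from 0.957 to 7.35 FPKM (q = 0.0282 in the authors' deposited table). Olfr856-ps1 (7.15 to 39.7 FPKM), a pseudogene, and H2-Gs10 (2.34 to 9.36 FPKM), of the many-membered histocompatibility family, could share reads with similar copies and are uncertain.

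Defining markers of each other cell class summed to at most 16.9 FPKM in a group, while some genes of the wider lists, such as Fabp7 and Vim, were abundant. The list counts are small and are read against 4.56% lower and 8.18% higher among all genes. Astrocyte and radial glia genes gave 1 lower, Slc1a3 (4.34 to 2.34 FPKM, log2 ratio -0.89, q = 0.0231 in the authors' deposited table), and 0 higher of 10 tested, with 4 and 1 at an unadjusted p under 0.05. The 5 defining astrocyte markers summed to 7.86 FPKM in the wild type and 6.44 in the knockout, and 3 of them reached 1 FPKM. Of 4 tested oligodendrocyte genes 2 were higher, Mbp (4.86 to 9.35 FPKM, q = 0.0381 in the authors' deposited table) and Olig1 (1.03 to 2.65 FPKM, q = 0.0432 in the same table). With Clontech 0 of 4 oligodendrocyte genes were called, with a median log2 ratio of -0.37, Mbp at -0.31 and Olig1 at 0.21. The 5 defining markers of that lineage summed to 10.8 and 16.9 FPKM. Progenitor genes gave 1 lower, the intermediate filament gene Vim (38.7 to 18.8 FPKM, log2 ratio -1.04), and 1 higher, Fabp7 (135 to 284 FPKM, log2 ratio 1.07), of 10. The Vim window printed above lies at chr2:13574061-13574310 on the plus strand and overlaps a peak at chr2:13574203-13575051 (mm10, score 57.35 as given by the authors).

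No microglial or blood gene passed the filter, and the 5 microglial markers summed to 1.05 and 0.334 FPKM with C1qa listed at 0 in both groups. The 5 vascular markers summed to 0.0771 and 0.345 FPKM, with Cdh5 listed at 0 in both. The list counts here are again read against 4.56% lower and 8.18% higher among all genes. In the wider vascular list 1 of 2 tested genes was higher, Cspg5 (7.17 to 14.9 FPKM). Cspg5 is made by neurons, is not among the 5 vascular markers and was not called with Clontech (log2 ratio 0.47). Catecholamine and acetylcholine markers summed to 0.0958 and 0.0883 FPKM, with Dbh listed at 0 in both groups, and Pnmt, the tested gene of that list, was at 0.256 and 1.51 FPKM and not called. Slc17a6 and Slc17a7, which mark most glutamate neurons, summed to 0.0192 and 0.00962 FPKM. Slc17a8, the vesicular glutamate transporter that 5-HT neurons use, was at 123 and 92.8 FPKM and was not called. With Clontech 1 gene of the glutamate marker list was tested, and it was called lower (log2 ratio -0.78). The 4 GABA and glycine neuron markers summed to 3.19 and 3.31 FPKM, and Gad2 was higher (0.951 to 1.86 FPKM, q = 0.0269 in the authors' deposited table), a call lost with log2(FPKM + 1). Slc6a11, a GABA transporter, was also higher (1.82 to 3.44 FPKM). Cell cycle genes gave 3 lower, Mcm2, Mcm6 and Rrm1 (log2 ratios -1.10, -1.15 and -0.67), and 2 higher, Tyms and Ube2c (1.08 and 1.58), of 20 tested. These are 15% and 10%, against 4.56% and 8.18% of all genes. At an unadjusted p under 0.05 in the authors' deposited table the counts were 3 and 6. With Clontech 1 was lower and 0 higher of 26 (12 and 0 at an unadjusted p under 0.05), with a median log2 ratio of -0.69. Clontech ratios were -1.09 for Mcm2, -0.66 for Rrm1, 0.33 for Mcm6, -0.27 for Tyms and -0.41 for Ube2c. The Rrm1 window printed above, chr7:102441445-102441694 on the plus strand, overlaps a peak at chr7:102441428-102442162 (mm10, score 72.63 as given by the authors). The part of other cells in these calls was not tested.

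Many genes of protein synthesis and respiration were higher by modest amounts. Of 38 cytosolic ribosomal protein genes 24 were higher and 0 lower (30 and 0 at an unadjusted p under 0.05 in the authors' deposited table), with a median log2 ratio of 0.76 and a range of -0.07 to 1.11. Rpl37 went from 412 to 891 FPKM and Rpl38 from 1515 to 2987 FPKM (log2 ratios 1.11 and 0.98). Of 46 oxidative phosphorylation genes 27 were higher and 0 lower (35 and 2 at an unadjusted p under 0.05 in the authors' deposited table), with a median of 0.71 and a range of -0.54 to 1.05. Cox8a, a subunit of cytochrome oxidase, went from 404 to 838 FPKM, and Ndufa1, of complex I, from 330.0 to 678 FPKM (log2 ratios 1.05 and 1.04). Many ribosomal protein genes have processed pseudogenes, so single values are uncertain.

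The ratio of all genes moved with expression level. Genes with a mean of 128 FPKM or more (921) had a median log2 ratio of 0.50, and 32.9% of them were higher and 1.41% lower. Between 8 and 32 FPKM the median was 0.00, with 5.31% higher and 6.13% lower. Under 2 FPKM it was 0.18, with 5.21% higher and 3.42% lower. The ratio also moved with gene size. Genes spanning under 10 kb had 466 higher and 65 lower calls of 2815 (16.6% and 2.31%, median log2 ratio 0.34), and genes over 50 kb 168 and 179 of 3068. Among genes under 10 kb with at least 32 FPKM, 32.4% of 1059 were higher. In the Clontech libraries of the same genotypes the ribosomal and oxidative phosphorylation medians were -0.05 and -0.03, 0 genes of either list were called (0 also at an unadjusted p under 0.05 in the authors' deposited table), and genes at 128 FPKM or more had a median of -0.05.

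When each NuGEN ratio was centred on the running median of 501 genes of similar level, 0 genes of both lists passed 1.5-fold, with medians of 0.17 and 0.16. The count of higher genes fell from 901 to 520 and that of lower genes stayed at 502, so that higher genes were 50.9% of calls in place of 64.2%. The deposited q-values were kept. Only 503 lower and 901 higher genes had q below 0.05 in the authors' deposited table, so calls could hardly be gained. The subtracted medians ran from -0.07 to 0.60, a range that lowers ratios far more than it raises them, so losses fell on higher calls. This construction sets the direction of that change. The serotonin metabolism list kept 9 lower and 0 higher with a median of -1.25. Of the neuropeptide list 6 of the 7 higher genes were left, of the calcium-binding list 4 of 6 and of the G protein regulators 3 of 4. The counts of the other lists described above were unaltered.

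**Figure D4:**
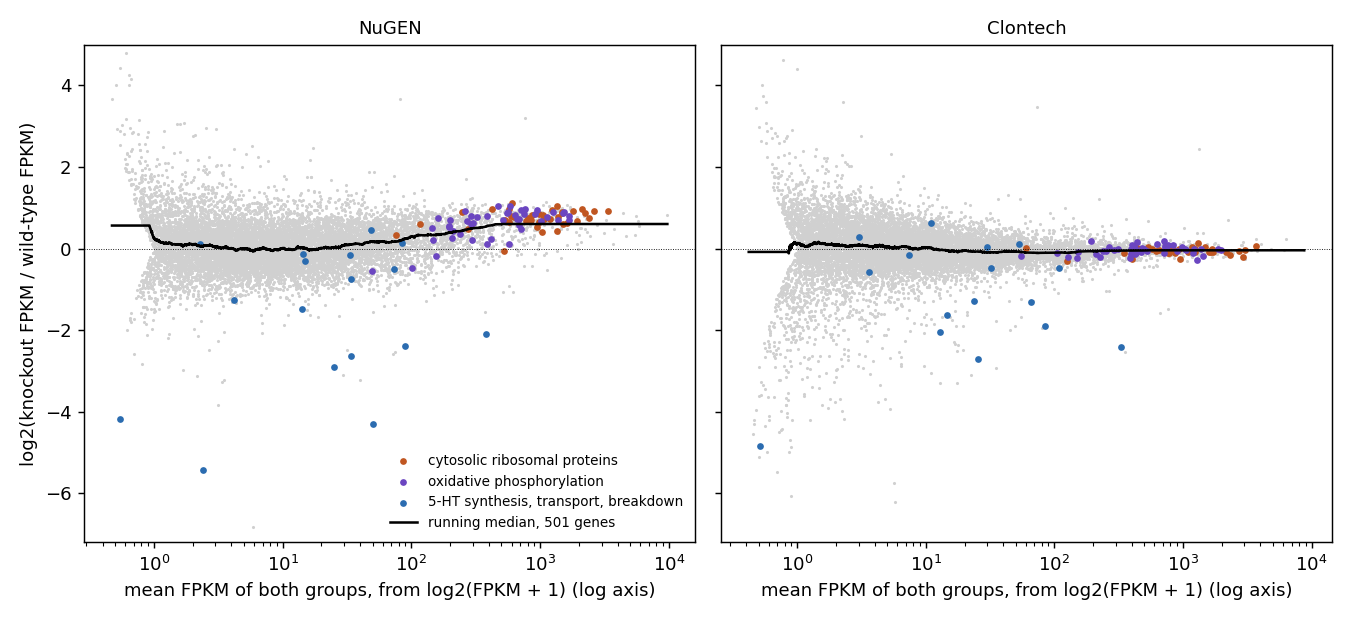
Log2 ratio of knockout over wild-type FPKM against mean FPKM of both groups (log axis) in the NuGEN (left) and Clontech (right) tables, 1 grey point per tested gene, with ribosomal, oxidative phosphorylation and serotonin metabolism genes coloured and the running median of 501 genes in black. The NuGEN median line climbs to 0.60 among abundant genes and also lies above 0 at the lowest levels. The Clontech line stays near 0, while serotonin metabolism genes reach well below the line in both panels.

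The Clontech libraries give a second measurement of the same genotypes. The kits share no library by the labels, whether they share animals or RNA was not given, and the tables were normalised separately, so ratios and not levels are compared. With the Clontech kit 202 of 10939 tested genes (1.85%) were lower and 105 (0.960%) higher, 2.81% in all. Of the 478 lower NuGEN calls tested with both kits, 60 (12.6%) were also called lower with Clontech, which is 33.1% of the 181 Clontech lower calls tested in both. For higher calls the overlap was 38 of 857 (4.43%), or 36.5% of 104. Without regard to calls, 75.7% of lower and 57.6% of higher NuGEN calls had a Clontech ratio of the same sign. Among genes not called by NuGEN 48.5% had a Clontech ratio above 0.

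Larger changes recurred more often. Of lower calls at 4-fold or more 13 of 21 (61.9%) were also called with Clontech, against 24 of 124 (19.4%) between 2-fold and 4-fold and 23 of 333 (6.91%) below 2-fold. Of higher calls these shares were 7 of 22 (31.8%), 18 of 248 (7.26%) and 13 of 587 (2.21%). By the smaller of their 2 ratios the strongest shared falls were Fev (-6.82 with NuGEN and -6.20 with Clontech), Cthrc1 (-3.11 and -2.93), Lpar1 (-3.22 and -2.89), Tph2 (-4.30 and -2.70), Pcsk5 (-3.83 and -2.22), Dhrs3 (-2.20 and -4.17), Gchfr (-2.10 and -2.42) and Pcsk1 (-2.06 and -2.11). The strongest shared rises were Calb2 (3.66 and 3.47), Penk (3.20 and 2.43), Crhbp (2.43 and 3.59), Tac1 (2.50 and 2.32), Mc4r (2.36 and 2.03), Zfp703 (1.77 and 1.46), Neurod6 (2.32 and 1.32) and Lmo1 (1.56 and 1.31). Slc22a3 (-4.84) and Npy (-3.14) had steep Clontech ratios at low FPKM without a call. Conversely, Qdpr and En1, not called with NuGEN, were called lower with Clontech (log2 ratios -1.31 and -0.92), and Klf7 was called higher (0.75).

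Some NuGEN changes had no counterpart. Pgls, which fell 5.63-fold with NuGEN, was at 45.5 and 49.9 FPKM with Clontech (log2 ratio 0.14). Htr1a was at 1.07 and 0.924 FPKM there (log2 ratio -0.21), and Xist at 3.84 and 4.24 FPKM. Rgs20 had a Clontech log2 ratio of 0.02 and Pcp4 one of -0.50. Opposite calls were made for 9 genes. Fabp7, a fatty acid binding protein of radial glia, rose with NuGEN (135 to 284 FPKM) and fell with Clontech (1289 to 458 FPKM, log2 ratio -1.49). Id3, an inhibitor of bHLH factors, had log2 ratios of 1.396 and -1.68, Anxa1 of 0.84 and -3.29, Fam183b of 1.72 and -1.28 and Cenpq of 0.86 and -1.25. Cd63, Dbi and 1810037I17Rik were likewise higher with NuGEN and lower with Clontech, and Tmem170b went the other way (-0.90 and 0.85). Astrocyte genes also parted by kit, with 6 of 11 lower in the Clontech table, where the 5 markers summed to 30.4 FPKM in the wild type and 5.08 in the knockout. The part of glial transcripts in the opposite calls was not tested.

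**Figure D5:**
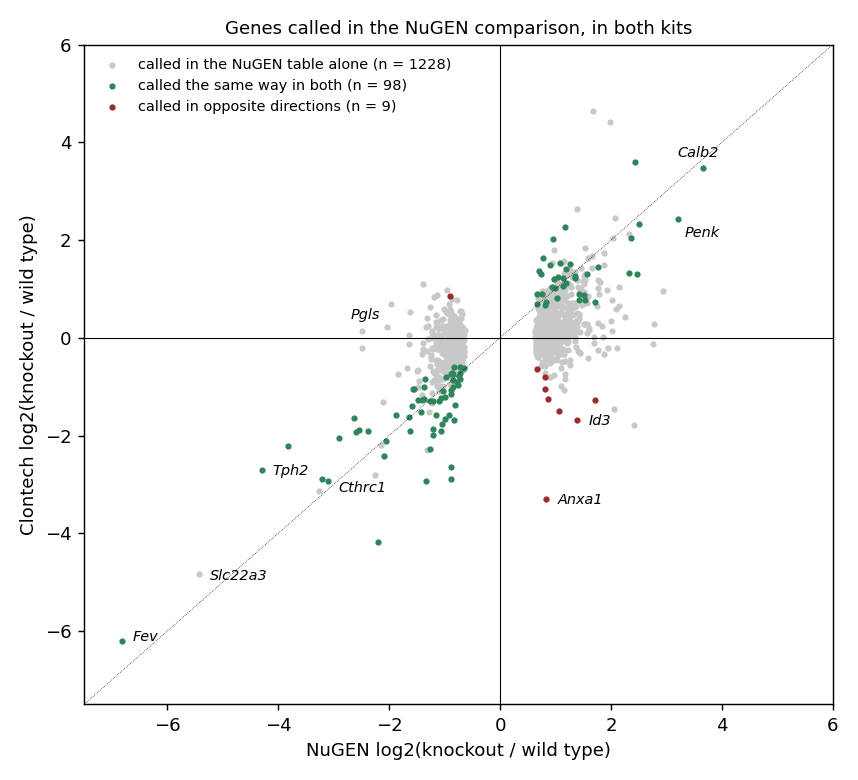
NuGEN (horizontal) against Clontech (vertical) log2 ratio of knockout over wild type for genes called in the NuGEN comparison and tested in both, with the line of equal ratios. Genes called the same way in both (98, green) spread along the line from Fev to Calb2, 9 genes called in opposite directions (red) include Anxa1 and Id3, and most of the rest (grey) lie near 0 on the vertical axis.

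The Myc-tagged Pet-1 peak list holds 4934 peaks from hindbrain, for which the labels conflict on genotype and last age. A peak within the gene span or 5 kb before it was found for 183 of 500 lower genes matched to RefSeq (36.6%, 95% exact Clopper-Pearson interval 32.4 to 41.0), for 329 of 892 higher genes (36.9%, 33.7 to 40.1) and for 3656 of 9543 genes not called (38.3%, 37.3 to 39.3). With this link the 3 intervals overlap. All called genes together were not set against the others. With a 20 kb flank the share of lower genes was below that of uncalled genes, as given further on. Genes called lower with both kits had a peak in 12 of 60 cases (20%, 10.8 to 32.3), among them Fev, Ddc, Gchfr and Vim, and genes higher with both in 3 of 37 (8.11%, 1.70 to 21.9). Both of these shares, and their intervals, lie below the interval of genes not called. Ddc had 1 peak, far inside the gene, Slc22a3 had 1 and Gchfr 2. Tph2, Slc6a4 and Slc18a2 had none by this link. Several factors not called with NuGEN had more, such as 4 each at Gata2 and Lmx1b and 3 at En1. Intervals cover counting error only, genes are not independent replicates, and a peak does not name its target. Of promoter windows 35.9% for lower, 40.6% for higher and 39.5% for uncalled genes held CCGGAA or CAGGAA.

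Wild-type development gave a further reading of the called genes, from the authors' deposited stage table. The labels give the Clontech kit for E11.5 and PN, and the table's E15.5 values were a median of 0.978 times those of the Clontech wild type and 1.06 times those of the NuGEN wild type, with 5th to 95th percentiles of 0.845 to 1.15 and 0.467 to 2.003. From E11.5 to E15.5, 21.3% of all genes tested there rose and 17.0% fell, and from E15.5 to PN 15.9% rose and 17.1% fell. Of genes lower in the knockout 36.2% (95% exact interval 31.9 to 40.7) rose and 15.53% fell in the earlier interval, against 22.3% and 16.8% of genes not called. In the later interval 38.2% (33.8 to 42.7) of lower genes fell and 10.44% rose, against 17.99% and 15.6% of genes not called. Of genes higher in the knockout 20.5% rose and 20.05% fell in the earlier interval, and 23.5% (20.8 to 26.5) rose and 17.7% fell in the later. Both intervals share the E15.5 libraries, and are not independent readings.

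Single genes showed different courses in the authors' deposited stage table. Cited1 and Dnajc12, lower in the knockout, rose in the wild type from 40.3 to 104 and from 61.4 to 143 FPKM between E11.5 and E15.5. Maob fell from 33.0 at E15.5 to 7.28 FPKM in PN, and St18 from 5.43 to 0.426 FPKM. The serotonin genes Tph2 and Slc6a4 instead fell before E15.5. Among genes higher in the knockout, Calb2, Penk and Tac1 rose from E15.5 to PN (21.7 to 88.3, 638 to 1029.9 and 2.25 to 83.6 FPKM), and Neurod6 and Meis2 fell (6.88 to 1.21 and 6.19 to 1.53 FPKM).

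Within each class of gene size the later interval gave a larger share of falls for lower genes. Between 10 and 50 kb 47.3% of 243 lower genes fell against 21.3% of genes not called. Under 10 kb 32.3% of 65 lower genes fell against 15.8%, and over 50 kb 27.2% of 169 against 14.496%. Genes under 10 kb departed from the overall pattern in part. Before E15.5 23.1% of the 65 lower ones rose and 27.7% fell, against 16.6% and 20.9% of genes not called. The larger share of rises was also seen for all lower genes, and the larger share of falls was not. After E15.5 26.2% of the lower ones rose against 19.2% of genes not called. Shares of 65 genes are imprecise. Just inside the 1.5-fold threshold stood Nmnat2 (log2 ratio -0.63) and Apoo (0.63). Just inside the q threshold stood Acaa2 and Aurkaip1 (q = 0.0499 in the authors' deposited table for both), and just outside it Cttn and D030056L22Rik (q = 0.0502 in the same table). For 12 tested genes the deposited log2 differed from the ratio of the FPKM columns, which is the one used here.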

How the data were processed

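Messenger RNA of sorted 5-HT neurons was measured in 3 wild-type and 3 Pet-1-/- NuGEN libraries. Tools listed in the submitters' processing notes are MACS 1.4.2 and, with no version, BWA, Cufflinks and TopHat2. The same notes list mm9 and mm10 as builds and assign neither to a step. The authors deposited FPKM as 1 value per group, in a table of Cuffdiff form per the file headers, and no scaling between groups is described. For each gene the authors' deposited tables add a log2 ratio, its p-value and the q-value. The q-values equal a Benjamini-Hochberg adjustment over genes with status OK, checked to within 5.28e-07. Peaks of Myc-tagged Pet-1, on mm10, carry a score set by the authors (50 to 3133). NuGEN and Clontech tables were normalised separately. Another 3 columns of the stage matrix, named for a stage with no sample here, and the rest of that matrix were not used.

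Log2 ratios were computed from the 2 FPKM columns with Python 3.11.15 and pandas 2.3.3, with no pseudocount. Calls took q below 0.05, at least 1.5-fold, status OK and at least 1 FPKM in a group. No test was added, since 1 value per group allows none, and shares carry exact binomial intervals (scipy 1.17.1, 95%). Symbols of 10935 tested genes (99.2%) matched RefSeq (GRCm38.p6), which gave spans and promoter windows. Alternatives were other fold, q and FPKM thresholds, centring, upper quartile scaling and log2(FPKM + 1).

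Named genes were the 12 largest falls and rises reaching 5 FPKM, up to 5 called members per list, all tested serotonin genes, the 8 strongest shared changes each way, up to 6 opposite calls, the 5 largest differences between kits and the neighbours of the thresholds. Other opposite calls, Scn1a, Htr5b, Fos, the Y-linked genes and the uncalled examples were named after their values were seen. The members and lists were chosen with earlier results of these data known. Values of a few genes the rule names are not reported here.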

Additional observations from a re-analysis of the deposited data

How the results depend on the processing

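No paired analysis was possible because each group was deposited as 1 pooled value, and leaving out replicates was not possible for the same reason. Depth is unknown, so the limits it sets are not given. Against 502 lower and 901 higher calls, 163 and 308 were at least 2-fold and 202 and 361 had q below 0.01 in the authors' deposited table. Centring on the running median along expression level, chosen after seeing the data, gave 520 higher calls and subtracted medians of -0.07 to 0.60 from the ratios. It took the ribosomal and oxidative phosphorylation medians to 0.17 and 0.16, and the cause was not tested. Shared calls of both kits, 60 lower and 38 higher, became 36 and 19 at 2-fold and 33 and 21 at q below 0.01. Calls of the NuGEN table stayed within 1.5 times with the other filters, centring on the median (a shift of 0.09), upper quartile scaling (0.05) and log2(FPKM + 1). Shared calls did so with at least 5 FPKM, log2(FPKM + 1) and the running median, and were not computed under the other settings.

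A peak within 1 kb of a start was found for 30.2% of lower, 33.5% of higher and 32.5% of uncalled genes, a peak within 20 kb of the span for 44.8%, 49.1% and 50.3%, and a peak in the upper 50% of scores for 20.2%, 22.4% and 20.9%. No intervals are given for the 20 kb shares, where lower genes stood below uncalled genes, and the difference was not tested. With at least 5 FPKM in a stage, 45.8% of lower genes rose before E15.5 and 49.2% fell after it. For uncalled genes 28.7% rose and 21.3% fell before E15.5, and 19.8% rose and 24.5% fell after it, and 20.7% of higher genes fell after it. At 2-fold between stages, 31.3% of lower genes rose and 11.8% fell before E15.5 and 31.9% fell after it. For higher genes the shares were 13.1% and 13.2% before, and 19.1% rose and 8.57% fell after it. For uncalled genes they were 16.99% and 12.4% before and 11.6% and 12.7% after.

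Of 139 named genes, calls were lost for 14 with the running median, mostly ribosomal and respiratory genes, 3 with median centring, 1 with the upper quartile and 2, Gad2 and Oprk1, with log2(FPKM + 1).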
